A study of Mus musculus with 186 samples.

Results

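The brain's extracellular matrix genes described here are 9 of the 28338 genes in the deposited table, taken by name: the 4 lecticans Acan, Bcan, Ncan and Vcan, the 3 hyaluronan and proteoglycan link proteins Hapln1, Hapln2 and Hapln4, and the 2 tenascins Tnr and Tnc. The list came from general knowledge but was chosen with earlier results of these data known. All 9 genes passed the low-count filter in every comparison reported. They were measured by bulk RNA sequencing in brains of mice that are wild type or mutant for Akap11, which encodes an A-kinase anchoring protein (a protein that tethers protein kinase A inside cells). Mice that were Akap11 -/- (KO), Akap11 +/- (HET) or wild type (WT) were sampled at 4 and at 12 weeks of age in 6 regions: substantia nigra (SN), thalamus (TH), striatum (STR), hippocampus (HP) and the somatosensory (SSC) and prefrontal (PFC) cortex. This gives 36 groups, 30 of 5 libraries and 6 of 6 libraries, with 96 libraries at 4 weeks and 90 at 12 weeks. The sources used here do not give the strain, the sex or the way the Akap11 allele was made. The labels number the samples without saying that they are separate animals, so p-values measure the spread between these samples, which may in part be technical.

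Perineuronal nets are lattices of matrix that wrap the soma and proximal dendrites of some neurons, above all fast-spiking parvalbumin interneurons, and a looser matrix of related make-up fills the space around other cells. Their backbone is hyaluronan, a sugar polymer made at the cell membrane. Lecticans bind hyaluronan with one end, link proteins of the Hapln family lock that bond, and trimers of tenascin-R cross-link the other end of the lecticans. Aggrecan (Acan) marks most nets, brevican (Bcan) and neurocan (Ncan) are spread through the neuropil, and versican (Vcan) lies largely around fibre tracts and nodes. Neurocan and tenascin-C (Tnc) are known as matrix proteins of the young brain. Nets form over the first postnatal weeks and then persist in the adult brain.

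The lectican and link protein genes lie in pairs in the mouse genome. In the GENCODE M21 annotation of GRCm38, Ncan (chr8:70093085-70120873, minus strand) and Hapln4 (chr8:70083457-70090862, plus strand) are 2.22 kb apart on opposite strands. Bcan (chr3:87987531-88000230) and Hapln2 (chr3:88021750-88027583) lie 21.5 kb apart on the minus strand. Vcan (chr13:89655312-89742509, minus strand) and Hapln1 (chr13:89539796-89611652, plus strand) are 43.7 kb apart. Acan (chr7:79053483-79115099, plus strand) ends 2 bases from the link protein gene Hapln3, which stayed between 0.43 and 1.57 CPM (the counts-per-million level) in WT libraries. No coding gene lies between the partners in any of the 4 pairs. Tnr (chr1:159523769-159931729, plus strand) and Tnc (chr4:63959785-64047015, minus strand) have no such partner.

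The promoters of the genes whose RNA fell with age in at least 3 regions are shown here, with that of Hapln2, whose RNA passed the test for age in no WT region, for contrast. Each is the 250 bases before the RefSeq transcription start on GRCm38.p6, read 5′ to 3′ on the gene's strand, and capitals mark any of 6 motifs searched on both strands. The RefSeq promoter table used here matched 8 of the 9 genes, all but Hapln4. For Bcan and Acan the bases just after the RefSeq start were not found in a GENCODE transcript of the gene. For the other matched genes they were.
Ncan, chr8:70120845-70121094, minus strand: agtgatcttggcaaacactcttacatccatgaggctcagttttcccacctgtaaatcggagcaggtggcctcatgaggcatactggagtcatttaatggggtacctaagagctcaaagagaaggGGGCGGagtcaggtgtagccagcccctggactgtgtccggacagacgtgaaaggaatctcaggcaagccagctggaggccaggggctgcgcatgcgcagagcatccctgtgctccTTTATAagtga
Bcan, chr3:88000357-88000606, minus strand: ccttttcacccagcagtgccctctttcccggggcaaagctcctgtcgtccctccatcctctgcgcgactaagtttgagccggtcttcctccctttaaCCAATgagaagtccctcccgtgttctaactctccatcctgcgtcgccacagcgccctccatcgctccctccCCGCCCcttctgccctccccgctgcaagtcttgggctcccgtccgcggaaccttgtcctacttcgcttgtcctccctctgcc
Tnc, chr4:64047016-64047265, minus strand: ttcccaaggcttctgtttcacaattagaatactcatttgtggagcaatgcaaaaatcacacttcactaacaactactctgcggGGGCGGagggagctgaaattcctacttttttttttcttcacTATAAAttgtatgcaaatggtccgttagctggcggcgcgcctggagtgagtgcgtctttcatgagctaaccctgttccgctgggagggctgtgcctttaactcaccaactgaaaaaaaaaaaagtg
Vcan, chr13:89742513-89742762, minus strand: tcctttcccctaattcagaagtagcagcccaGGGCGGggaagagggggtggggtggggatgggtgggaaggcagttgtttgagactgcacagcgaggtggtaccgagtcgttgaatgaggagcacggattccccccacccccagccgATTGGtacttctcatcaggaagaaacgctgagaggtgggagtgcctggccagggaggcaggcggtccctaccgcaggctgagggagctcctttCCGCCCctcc
Hapln2, chr3:88027512-88027761, minus strand: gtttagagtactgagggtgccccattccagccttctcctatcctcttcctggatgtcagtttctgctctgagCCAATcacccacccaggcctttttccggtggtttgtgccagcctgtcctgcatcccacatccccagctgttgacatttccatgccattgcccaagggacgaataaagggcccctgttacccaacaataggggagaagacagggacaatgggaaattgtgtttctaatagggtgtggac
The motifs were the TATA box TATAAA, the GC box GGGCGG, the CCAAT box CCAAT, the cAMP response element TGACGTCA, the AP-1 site TGANTCA and the NFI site, searched by name alone. Of 32851 RefSeq mouse promoters of the same length, 12.4% held the TATA box, 32.7% the GC box and 33.9% the CCAAT box. Ncan and Tnc, the genes with the largest falls with age, each held 1 TATA box and 1 GC box. In Ncan the TATA letters began at position -11 on the minus strand of the gene and in Tnc at -126 on its plus strand. Bcan held a GC box and a CCAAT box, Vcan 2 GC boxes and a CCAAT box, Acan 3 GC boxes and a CCAAT box, and Hapln2 only a CCAAT box. None of the 6 motifs was in the windows of Hapln1 and Tnr. The remaining 3 motifs, present in 1.55%, 6.75% and 0.0365% of promoters, were in no window of these genes. GC content ran from 44.8% in the printed Tnc entry to 74.4% in Acan, against a median of 52.4% over all promoters. A second RefSeq entry of Tnc, not printed, had 51.2% GC and its TATA letters at -205.

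Library totals were 20.8 to 73.3 M expected counts (M, 1e6), with a median of 45.1 M. Akap11 was lower in every KO library than in any other library of its region and age in 12 of 12 sets, and lower in HET than in WT libraries in 11 of 12. The exception was the 4-week SN library labelled WT 92, which held 44.8 CPM of Akap11 where its 5 fellow WT libraries held 197 to 245, so that level goes against its label. Region markers put all 30 striatal libraries above every other library on the striatal neuron list, 29 of 31 thalamic libraries on the thalamic list and 32 of 32 nigral libraries on the dopamine neuron list. A few 4-week libraries were taken to stand apart, for markers of a neighbouring region or low markers of their own. In STR these were KO 51, KO 161, KO 163 and WT 92, and in TH WT 913, WT 914 and WT 23. In SN they were WT 42, WT 92, KO 44 and KO 91. No cut-off is given for this choice. No hippocampal library was set apart, although the 4-week hippocampal WT 23 and WT 914 scored 7.244 and 6.799 on the thalamic list. Hippocampal WT 92 and WT 42 scored 3.929 and 3.936 on it. Calls in HP were therefore not tried without such libraries as a set. Thalamic WT 23 scored 8.933 on the thalamic list, and WT 42, which was kept, 8.941. On the cortical list WT 23 scored 3.25, the lowest of the 4-week thalamic libraries. Nigral WT 23, also kept, scored 6.228 on the thalamic list against 6.137 in WT 92. On the dopamine neuron list WT 92 was lower (4.314 against 5.95). Values without the libraries that stand apart rest on that choice. Where leaving these libraries out ended the age or genotype call of a gene named here, that value is given too. Separately, 16 libraries, all at 4 weeks, had at most 5.55% whole-number values against at least 17.3% in the others, and age cannot be told apart from any difference in how the 4-week and 12-week libraries were handled.

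Levels are given as CPM scaled by trimmed mean of M values. Compared per kilobase of the longest transcript, Bcan and Ncan led in 4-week WT prefrontal cortex, with 72.6 and 67.9 CPM per kb, followed by Hapln4 with 29.5 and Tnr with 23.1. Hapln1, Vcan, Hapln2, Tnc and Acan lay between 0.384 (Acan) and 2.58 (Hapln1) CPM per kb there. The order differed by region. In the 4-week somatosensory cortex Bcan stood at 98.3 CPM per kb, Hapln4 at 71.1 and Ncan at 68.8, and at 12 weeks Hapln4 stood at 81.9, Bcan at 69.3 and Ncan at 32.4. In the 4-week striatum Bcan stood at 112 CPM per kb and Hapln4 at only 4.39, while in the 4-week substantia nigra Bcan stood at 177, Hapln4 at 71.4 and Hapln2 at 33.4, above Ncan at 29.0. The nigral means of Bcan and Hapln4 are raised by the library labelled WT 92, the highest for both genes. It held 1212 CPM of Bcan against 361.1 to 531.7 in the others. By 12 weeks Ncan stood at 38.7, 32.3 and 12.5 CPM per kb in PFC, STR and SN.

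The highest and lowest regions differed by 16.3-fold to 29.5-fold for Hapln2, Hapln4 and Tnc, depending on gene and age, and by 1.45-fold to 5.86-fold for the other 6 genes (the plot of WT levels by region and age shows every library). Over the 15 pairs of regions at each age, 178 of 270 gene and pair contrasts passed the edgeR quasi-likelihood test at a Benjamini-Hochberg adjusted p under 0.05, beside 50.8% of all genes tested.

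**Figure D1:**
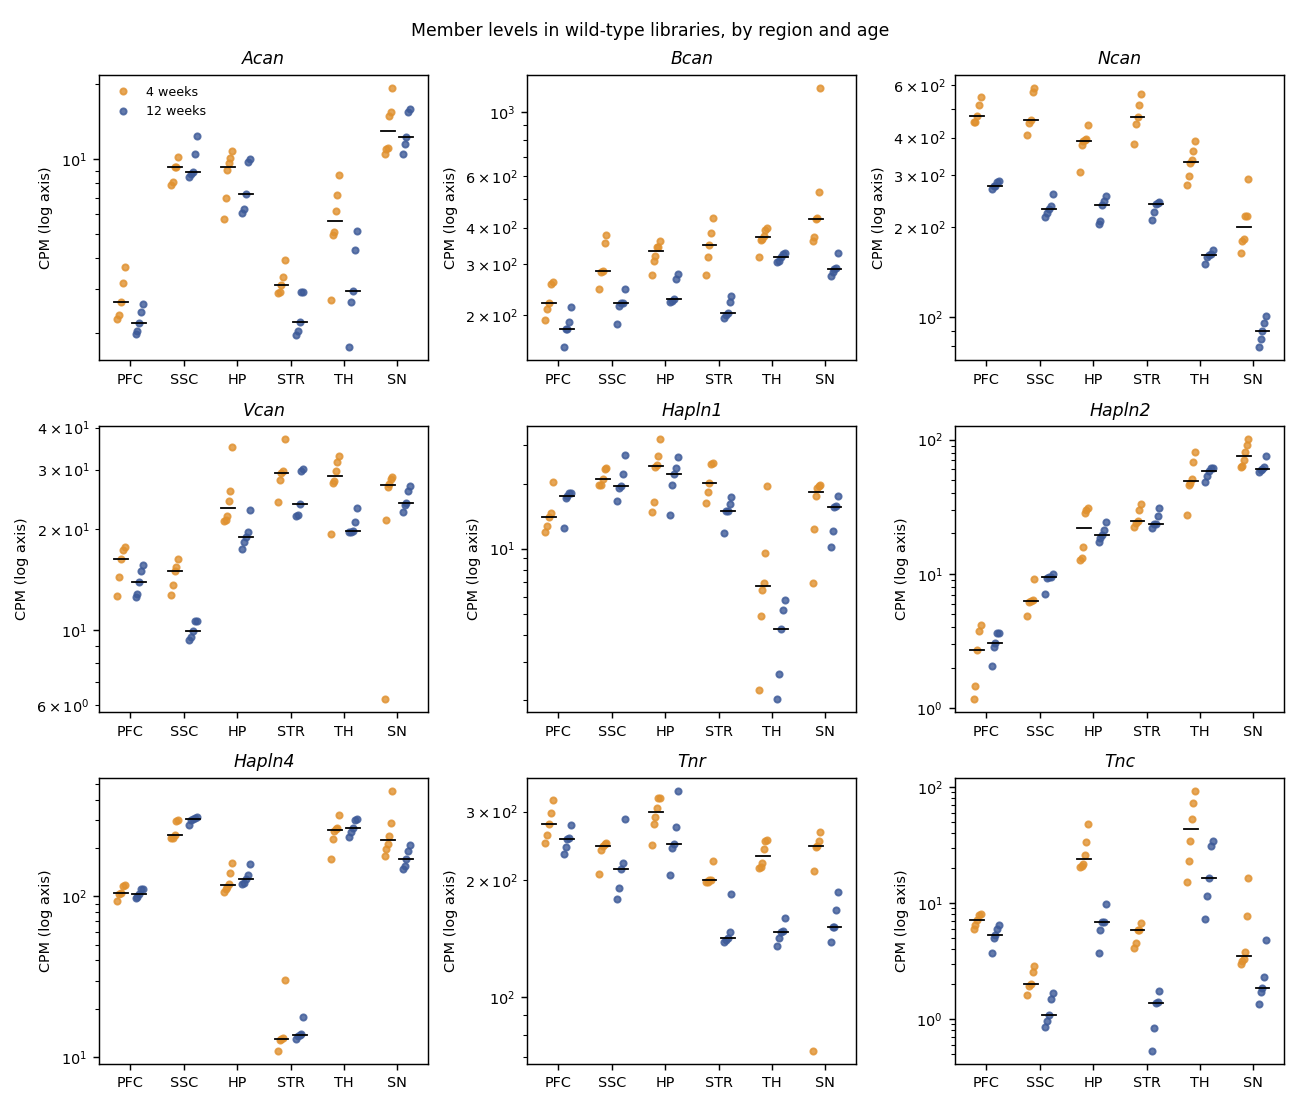
Levels of the 9 matrix genes in WT libraries, in CPM on a log axis, by region, with 1 point per library at 4 weeks (orange) and 12 weeks (blue) and a bar at each group's median. Ncan sits lower at 12 weeks in all 6 regions with no overlap, Hapln4 is lowest in STR, and Hapln2 is lowest in PFC.

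Hapln2, the link protein of nodes of Ranvier made by oligodendrocytes, was 29.5-fold higher in SN (78.1 ± 15.4 CPM, SD, n = 6) than in PFC (2.65 ± 1.34, n = 5) at 4 weeks and 20.8-fold higher at 12 weeks. Its order at 12 weeks was SN 62.9, TH 56.6, STR 25.4, HP 20.2, SSC 9.04 and PFC 3.03 CPM, in which SN and TH did not differ past the threshold (edgeR adjusted p = 0.638), nor did STR and HP (0.243). Hapln4, the link protein that accompanies brevican at perisomatic nets, was lowest in the striatum at both ages, with 16.0 ± 7.91 CPM at 4 weeks and 14.4 ± 1.93 at 12 weeks (SD, n = 5 each). The next lowest region, PFC, had 107.5 and 104.5 CPM, a log2 difference of 2.74 ± 0.19 (SE) at 4 weeks (edgeR adjusted p = 3.82e-18) and 2.86 ± 0.19 at 12 weeks. Its highest 12-week levels were 299 CPM in SSC and 271 in TH, which did not differ past the threshold (adjusted p = 0.506), and SN followed with 175. The third gene, Tnc, was highest in TH (48.4 ± 29.9 CPM at 4 weeks, 20.2 ± 12.1 at 12 weeks) and next in HP (28.6 and 6.65). Its lowest region was SSC at 4 weeks (2.20) and STR at 12 weeks (1.18), which gives a spread of 22.0-fold and 17.2-fold.

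Acan and Hapln1, both needed for compact nets, took different orders. Acan was highest in SN, with 13.7 ± 3.53 CPM at 4 weeks and 13.2 ± 2.45 at 12 weeks, then in SSC (8.94 and 9.80) and HP (8.71 and 7.88), and lowest in STR (3.24 and 2.41) and PFC (2.83 and 2.24). STR and PFC did not differ past the threshold at either age (edgeR adjusted p = 0.462 and 0.724), and SN and SSC differed at 4 weeks (0.0073) but did not pass at 12 weeks (0.0871). Hapln1 was highest in HP (23.1 and 21.3 CPM) and SSC (21.4 and 20.9), and lowest in TH, with 8.24 ± 5.98 CPM at 4 weeks and 3.98 ± 1.63 at 12 weeks. In its order the step down to TH was the one pair of neighbours that passed, at 4 weeks (adjusted p = 0.00768) and at 12 weeks (8.95e-07).

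The remaining lecticans and Tnr varied less. Ncan at 12 weeks ran PFC 278, SSC 233, STR 232, HP 230, TH 160 and SN 89.8 CPM; the steps from HP to TH and from TH to SN passed (edgeR adjusted p = 4.49e-05 and 5.23e-09) and the first 3 steps did not. Bcan ran the other way at 12 weeks, from TH 316 and SN 292 CPM down to PFC 184, and no pair of neighbours passed. At 4 weeks Bcan in SN averaged 556 CPM, with 1212 in the library labelled WT 92 and 361 to 532 in the other 5. Vcan was highest in STR (29.6 and 25.5 CPM at 4 and 12 weeks) and lowest in SSC (14.6 and 10.04). Tnr, the net cross-linker, spanned only 1.45-fold at 4 weeks, from HP 296 to STR 204 CPM, with no pair of neighbours past the threshold. At 12 weeks its span was 1.79-fold, and SSC at 218 CPM differed from SN at 159 (adjusted p = 0.00922).

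The genes whose mean levels over the 36 groups were most like those of a member differed for each member. Pearson's r of mean log2(CPM + 1) over 36 groups, among 14088 other genes with a mean of at least 1 CPM, is given as a description, since the groups share regions and libraries. The leading genes were Pde8a, Serpinb1a and Evi2a for Hapln2 (r = 0.994 each), Ankrd9, Tmem25 and Slc25a18 for Hapln4 (0.976, 0.973 and 0.967) and Nova2, Tbl1xr1 and Vps52 for Ncan (0.969, 0.958 and 0.951). For Bcan they were Nfasc, Aatk and Llgl1 (0.954, 0.943 and 0.938), for Hapln1 Dab1, Epb41l1 and Me3 (0.946, 0.945 and 0.942), and for Tnc Sh3bp4, Gpc1 and Efna2 (0.945, 0.943 and 0.923). Acan was led by Col11a1, Mmp9 and RP23-291B1.2 (0.918, 0.882 and 0.878), Vcan by 4930402H24Rik, Wasf2 and Adam17 (0.914, 0.913 and 0.910) and Tnr by Rras2, Gcn1l1 and Ssh2 (0.899, 0.887 and 0.880). Between members the highest values were 0.680 for Bcan with Vcan, 0.668 for Bcan with Hapln2 and 0.666 for Ncan with Tnr, and the lowest -0.608 for Hapln1 with Tnc. They cannot be set against the leading genes, which were picked as the closest of 14088. Of the chromosomal neighbours, Bcan and Hapln2 thus stood among the highest, while Ncan with Hapln4 had r = -0.224 and Vcan with Hapln1 r = -0.197.

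Between 4 and 12 weeks in wild type, matrix RNA fell wherever it passed the test. Of the 54 gene and region pairs, 24 were called and all 24 were lower at 12 weeks, beside 20.6% of all genes tested called in either direction and 11.4% called lower (edgeR quasi-likelihood test, Benjamini-Hochberg adjusted p under 0.05 per region). Ncan and Bcan fell in 6 of 6 regions, Tnc in 4, Vcan in 3, Acan and Tnr in 2, Hapln1 in 1, and Hapln2 and Hapln4 in none. The count per region was 2 of 9 in PFC (background 19.1%), 4 in SSC (27.1%), 4 in HP (17.7%), 6 in STR (18.5%), 6 in TH (22.6%) and 2 in SN (18.6%). The members' median log2 change lay between -0.67 in TH and -0.11 in SSC, while the median of all genes lay between -0.017 and 0.021. In 14 of the 54 pairs every 12-week library lay below every 4-week library and in none above, beside 6.61% of all genes fully below. Over the alternative settings 19 to 26 pairs were called, and single pairs were called higher with the library subset as a covariate (Hapln4 in SSC), in a fit to WT libraries alone (Hapln2 in SSC) and with a neighbouring-region score as a covariate (Hapln4 in STR). The fit to WT libraries alone takes no spread from HET and KO libraries. In it these calls were lost: Bcan in PFC (edgeR adjusted p = 0.0634) and SN (0.105), Tnc in TH (0.131), Vcan in HP (0.0972) and Acan in STR (0.164) and TH (0.117).

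Ncan fell to between 42.8% and 59.8% of its 4-week level in every region. In PFC the 4-week libraries held 452, 453, 472, 515 and 550 CPM and the 12-week libraries 269, 276, 276, 284 and 287. The 2 ages did not overlap, and the log2 change was -0.81 ± 0.06 (SE; edgeR adjusted p = 9.32e-10). In SSC they held 409, 449, 459, 569 and 590 against 217, 223, 231, 236 and 259 CPM, a change of -1.08 ± 0.09 (adjusted p = 2.17e-10). The striatum gave 382, 443, 469, 516 and 561 against 212, 225, 239, 242 and 243 CPM, a change with bounds of 2 SE at -1.14 and -0.86 (1.63e-10). All 3 regions show the same picture of 12-week libraries packed into a narrow range below all 4-week ones. The hippocampus went from a lowest, median and highest of 308, 390.5 and 440 CPM to 205, 210, 237, 244 and 254 CPM (-0.74 ± 0.08, adjusted p = 3.68e-07). The thalamus went from 277, 333 and 389 to 150, 159, 161, 163 and 168 CPM (-1.05 ± 0.08, 6.41e-10). The nigra had the largest change, from 163, 200.2 and 290.2 to 79.2, 84.2, 89.4, 95.1 and 101 CPM (-1.23 ± 0.14, 8.16e-07). No age group of Ncan overlapped the other in any region, and no call was lost when any 1 library was left out.

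Bcan, the lectican that ADAMTS proteases cut at perisynaptic sites, fell by less. In STR it held 276, 316, 350, 382 and 432 CPM at 4 weeks and 196, 200, 204, 222 and 232 at 12 weeks, a log2 change of -0.71 ± 0.10 (SE; edgeR adjusted p = 1.86e-05) that left 61.3% of the 4-week level. In SSC it held 247, 282, 284, 355 and 376 against 215, 221, 221 and 245 CPM and 1 lower value, in WT 2 (-0.50 ± 0.10, 0.000255). The ages did not overlap in either region. In SN the change was -0.94 ± 0.21 (adjusted p = 0.00219), from a lowest, median and highest of 361, 429 and 1212 to 274, 281, 289, 290 and 326 CPM, and without the library labelled WT 92 it was -0.54. That library also had the highest oligodendrocyte marker score, 11.51, of the set. With WT libraries alone in the fit, the SN change of Bcan was -0.92 and did not pass (0.105). In HP (-0.42 ± 0.07, 0.000147), PFC (-0.31 ± 0.10, 0.0376) and TH (-0.23 ± 0.08, 0.037) the ages overlapped. The PFC call was lost without any 1 of 5 libraries (12-week WT 3, 4 and 5, 4-week WT 913 and 142), and the TH call without any 1 of 9 (12-week WT 1, 2, 3 and 4, 4-week WT 914, 23, 142, 42 and 92) and without the 3 thalamic libraries that stand apart (-0.23, 0.0963). The 2 calls rest on small changes.

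Vcan fell in SSC, HP and TH. In SSC the 4-week libraries held 12.8, 13.6, 14.98, 15.4 and 16.3 CPM and the 12-week libraries 9.34, 9.55, 9.97, 10.7 and 10.7, with no overlap and a log2 change of -0.54 ± 0.10 (SE; edgeR adjusted p = 0.000247). In TH the change was -0.45 ± 0.10 (0.00155), and the 4-week library WT 913, with 19.3 CPM, lay below all 12-week libraries (19.5 to 23.1) while the other 4-week libraries held 27.3 to 32.9. In HP it was -0.36 ± 0.12 (0.0324), a call lost without any 1 of 6 libraries (12-week WT 1, 2, 4 and 5, 4-week WT 23 and 42). Changes in PFC (-0.16), STR (-0.19) and SN (0.08) did not pass. The nigral value turned to -0.11 without the library labelled WT 92, in which Vcan stood at 6.25 CPM against 21.2 to 28.5 in the other 4-week libraries. Vcan overlaps an antisense gene, Gm4117, and the sources used here do not say whether strand entered the counting.

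Acan was called in STR and TH only, and both calls were thin. In STR it held 2.90, 2.91, 3.12, 3.35 and 3.94 CPM at 4 weeks against 1.97, 2.03, 2.21, 2.91 and 2.92 at 12 weeks, ranges that overlap at their edges, with a log2 change of -0.40 ± 0.14 (SE; edgeR adjusted p = 0.0482). Any 1 of 6 libraries left out ended that call (12-week WT 2, 4 and 5, 4-week WT 913, 42 and 142). In TH the 4-week libraries ran from 2.71 (WT 142) to 8.61 (WT 914) CPM with a median of 5.66, and the 12-week libraries held 1.75, 2.67, 2.95, 4.29 and 5.13 (-0.79 ± 0.26, 0.0292). That call was lost without any 1 of 5 libraries (12-week WT 2, 3 and 5, 4-week WT 914 and 23), and without WT 913, WT 914 and WT 23 together the change was -0.33 (adjusted p = 0.492). In the remaining 4 regions the change lay between -0.33 in PFC (adjusted p = 0.158) and 0.14 in SSC and did not pass. In SN, where Acan was highest, it held a median of 12.98 CPM at 4 weeks (10.5 to 19.4) and 10.5, 11.5, 12.3, 15.5 and 16.0 at 12 weeks, groups that overlap almost completely (-0.07).

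Among the link proteins, Hapln1 fell in STR alone. There it held 16.2, 18.2, 20.2, 24.5 and 24.9 CPM at 4 weeks and 11.8, 14.9, 14.9, 16.1 and 17.3 at 12 weeks, a log2 change of -0.45 ± 0.11 (SE; edgeR adjusted p = 0.00485) with 1 overlapping pair of values. In TH its mean change was larger, -1.06 ± 0.39, but the 4-week libraries ran from 2.23 to 19.4 CPM and the adjusted p was 0.0526. It passed without the 12-week library WT 1 (0.0415) or the 4-week libraries WT 142 (0.0144) or WT 92 (0.0407), and it was -0.23 (0.758) without the 3 thalamic libraries that stand apart. In PFC, SSC, HP and SN the change lay between -0.17 and 0.18.

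Hapln2 and Hapln4 passed in no WT region. Hapln2 in SSC held 4.82, 6.14, 6.29, 6.41 and 9.10 CPM at 4 weeks and 7.03, 9.30, 9.44, 9.45 and 9.98 at 12 weeks, a log2 change of 0.47 with an edgeR adjusted p of 0.0799. Its other changes lay between -0.32 in SN (adjusted p = 0.172) and 0.21 in PFC. For Hapln4 in SSC the libraries held 229.7, 231, 241, 295 and 299.9 CPM at 4 weeks and 278, 298, 304, 306 and 310 at 12 weeks (0.21, adjusted p = 0.0969). In SN its value was -0.59 ± 0.21 (0.0532), from a median of 225 CPM (178 to 451) to 148, 154, 171, 192 and 209 CPM, and the top value was again the library labelled WT 92. It passed without the 4-week library WT 913 (0.04), WT 23 (0.0298) or WT 142 (0.0346), and was -0.24 (0.336) without the nigral libraries that stand apart. The nearby gene Ncan, 2.22 kb away, fell in all of these regions.

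Both tenascins fell in STR and TH, and Tnc also in SSC and HP. Tnc, high in the young brain, dropped most, and its largest changes were in STR and HP. In STR it held 4.09, 4.53, 5.86, 5.87 and 6.78 CPM at 4 weeks and 0.534, 0.833, 1.37, 1.42 and 1.75 at 12 weeks, a log2 change of -2.18 ± 0.35 (SE; edgeR adjusted p = 5.48e-05) that left 22.1%. In HP it went from a lowest, median and highest of 20.5, 23.9 and 48.2 CPM to 3.69, 5.92, 6.86, 6.93 and 9.82 (-2.11 ± 0.27, 3.62e-06), which left 23.2%. The ages did not overlap in either region and both calls held with any 1 library left out. In SSC the level was low, 1.63 to 2.85 against 0.861 to 1.69 CPM, and the change was -0.85 ± 0.22 (0.00507). In TH it was -1.25 ± 0.43 (0.0345), with 15.1 to 92.1 CPM at 4 weeks and 7.36 to 34.5 at 12 weeks. That call was lost without any 1 of 5 libraries (12-week WT 1, 2 and 4, 4-week WT 42 and 92), and the change was -1.83 without the 3 libraries that stand apart, which held the 3 lowest 4-week values. PFC (-0.43, 0.257) and SN (-1.37 ± 0.57, 0.0906) did not pass. A transcript named 8030451A03Rik overlaps Tnc, so some of its reads may belong there.

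Tnr, made largely by oligodendrocyte lineage cells and some interneurons, fell in TH and STR. In TH it went from a lowest, median and highest of 214, 231 and 253 CPM to 136, 142, 147, 148 and 160, a log2 change of -0.67 ± 0.07 (SE; edgeR adjusted p = 8.82e-08). In STR it went from 197, 198, 200.2, 201 and 223 to 139, 141, 142, 147 and 184 CPM (-0.41 ± 0.10, 0.0045). The ages did not overlap in either region. In SN the change was -0.44 ± 0.19 (0.101), and the library labelled WT 92 held 72.7 CPM against 210.5 to 266 in the other 4-week libraries. Without it the change was -0.61 and passed (0.000315). The cortical regions and HP had values of -0.18 to -0.11 that did not pass. Tnr overlaps the antisense gene Gm38039, with the same limit on strand as for Vcan.

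**Figure D2:**
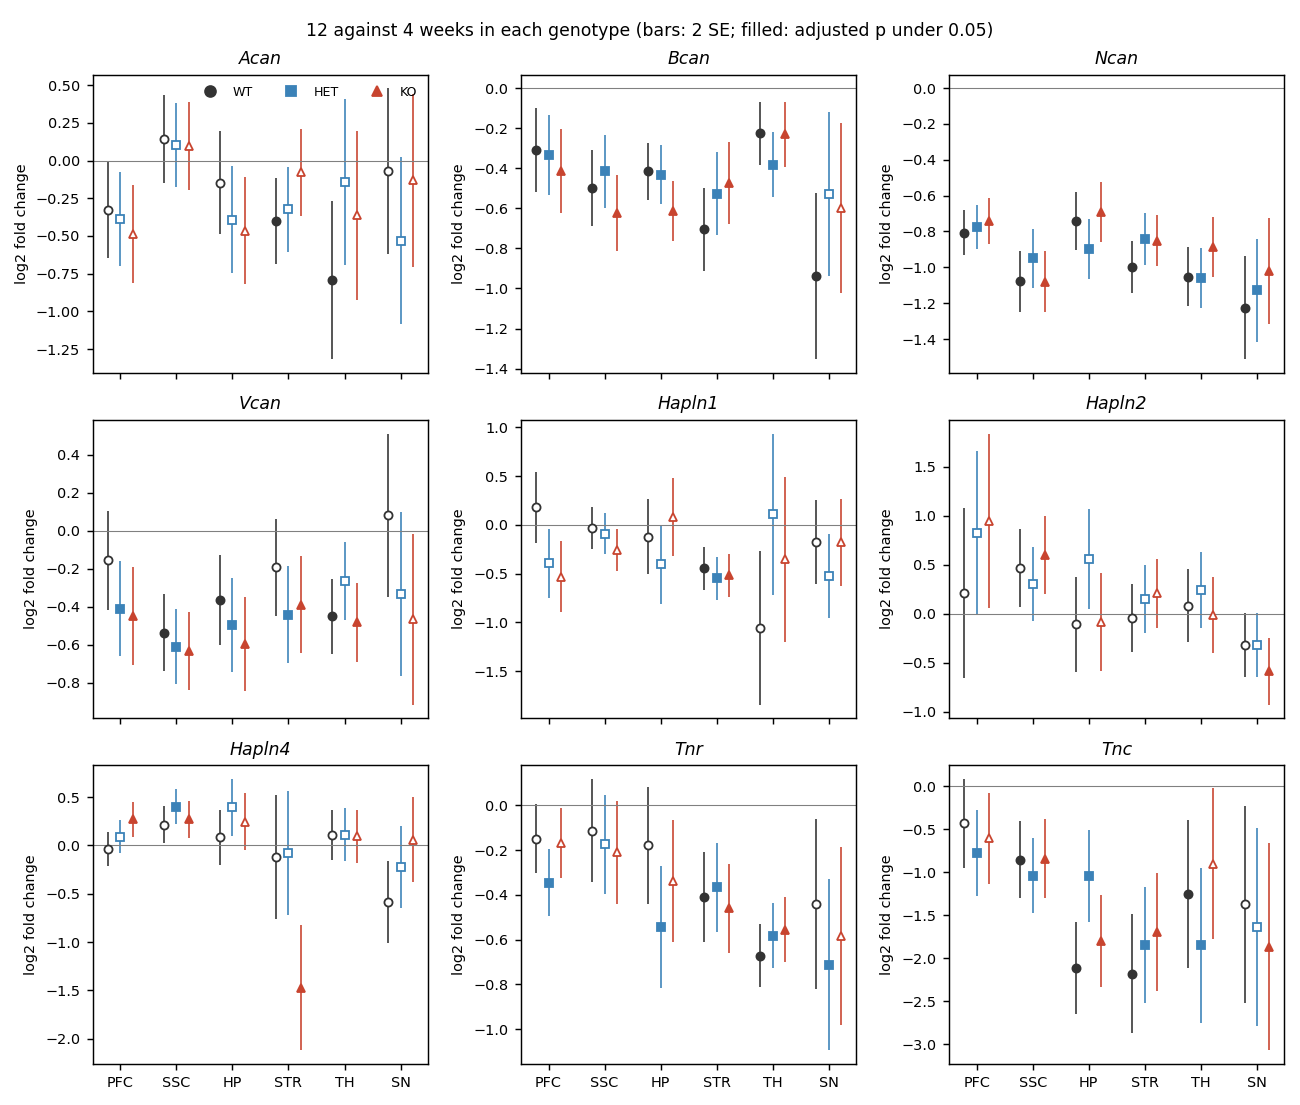
Log2 fold change at 12 against 4 weeks for each gene, region and genotype (WT circles, HET squares, KO triangles), with bars of 2 SE and filled symbols where the adjusted p is under 0.05. Ncan is filled in all 18 sets, Bcan in 16 and Tnc in 13, all lower, while Hapln2 has 2 filled symbols and Hapln4 has 4.

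Whether an age change differed between regions was tested in the WT libraries as the change in 1 region minus the mean of the other 5. Only Hapln4 in SN passed, -0.63 ± 0.19 (SE; edgeR adjusted p = 0.032), 1 of 54 contrasts beside 1.93% of all genes. The call rested on few libraries: it was -0.40 (0.231) without the 4-week library labelled WT 92, lost also without the 12-week nigral libraries WT 2 (-0.58), WT 4 (-0.57) or WT 5 (-0.62), and -0.35 (0.152) without the WT libraries that stand apart. With all libraries the falls of Ncan, which ranged from -1.23 to -0.74, did not differ past the threshold between any region and the rest, and neither did those of Tnc. At an unadjusted p under 0.05 there were 12 contrasts, and DESeq2 called 3. Leaving out 1 library also added calls: Bcan in SN without the nigral 4-week library WT 913, 914, 23, 42 or 142 (-0.60 to -0.51), Acan in TH without the thalamic WT 142 (-0.78) or the 12-week WT 4 (-0.83), Hapln1 in TH without WT 142 (-1.14) or WT 92 (-1.04), Ncan in SN without WT 913 (-0.33) and Tnr in TH without the library labelled WT 92 in SN (-0.39).

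Markers of cell types moved with age in the same libraries. In these bulk samples fewer cells of a type and less RNA per cell cannot be told apart. Of 10 oligodendrocyte markers, 2, 8, 9, 9, 8 and 9 were called lower at 12 weeks in PFC, SSC, HP, STR, TH and SN, with median log2 changes from -1.52 in SN to -0.69 in PFC. In the same order 19.1%, 27.1%, 17.7%, 18.5%, 22.6% and 18.6% of all genes were called in either direction. Over the regions 11.4% of all genes were called lower. The 2 of 10 in PFC lay near its background. Of 8 markers of precursors and newly formed oligodendrocytes, 4, 6, 7, 6, 8 and 6 were lower and 1, in SN, was higher. The summed oligodendrocyte score, a mean log2(CPM + 1), did not overlap between ages in SSC (7.19 to 7.65 against 6.61 to 6.84), HP (8.51 to 9.50 against 7.70 to 8.27), STR (9.01 to 9.78 against 7.95 to 8.33) and SN (9.99 to 11.5 against 8.95 to 9.35), and overlapped in PFC and TH. Astrocyte markers moved both ways, with 2 higher and 1 lower of 10 in PFC, 5 higher and 2 lower in TH and none called in SN. Fast-spiking interneuron markers had at most 3 of 10 called lower, in HP. The part of these cell groups in the matrix genes' changes was not tested.

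Neighbouring-region RNA was the other marker signal beside these results. In HP 7 of 8 thalamic markers were lower at 12 weeks, beside 17.7% of all genes called in either direction. The thalamic score ran from 3.93 to 7.24 at 4 weeks and 3.68 to 4.84 at 12 weeks. With the score as a covariate, an alternative chosen after seeing the data, the Tnc change in HP was -1.62 (edgeR adjusted p = 1.39e-06) and in STR, with a cortical score, -1.96. In STR 6 of 8 cortical markers were lower at 12 weeks, beside 18.5% of all genes called in either direction. The cortical score ran from 1.73 to 5.84 at 4 weeks and 1.62 to 1.91 at 12 weeks. For Acan in TH the change with the cortical score as covariate was -0.72 and no longer passed (0.0684).

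**Figure D3:**
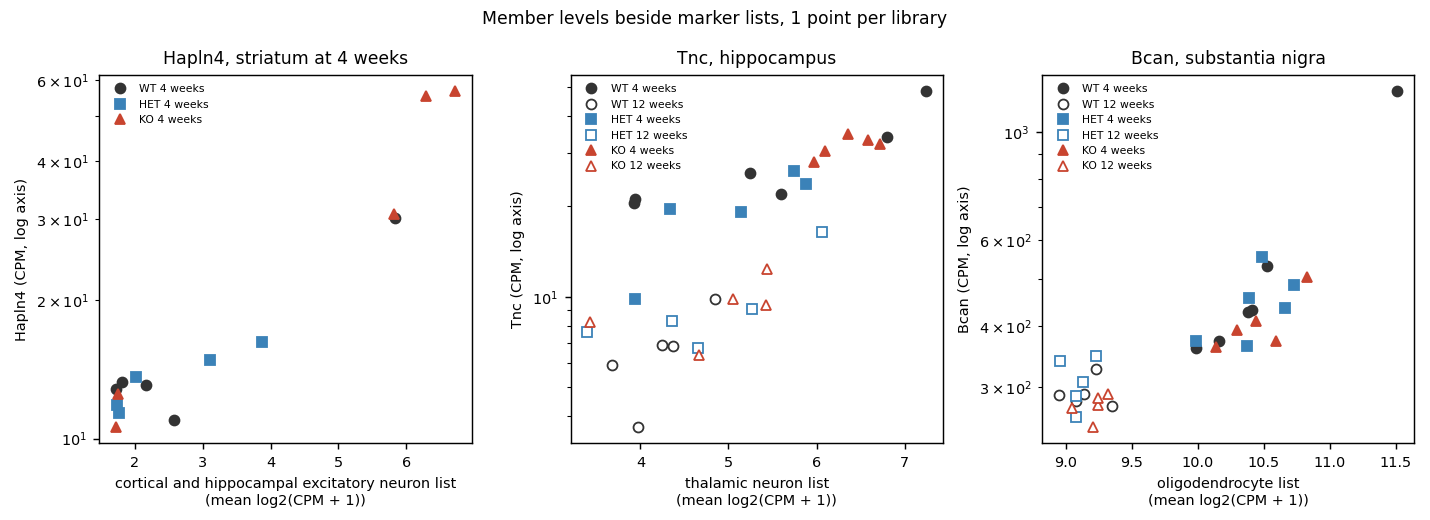
Levels of Hapln4 in the 4-week striatum, Tnc in the hippocampus and Bcan in the substantia nigra (CPM, log axis), 1 point per library, against the mean log2(CPM + 1) of a marker list; filled symbols are 4 weeks and open symbols 12 weeks. The 4 striatal libraries with Hapln4 of 30.1 CPM or more have cortical scores of 5.82 or more, and 1 WT nigral library stands alone at 1212 CPM of Bcan and an oligodendrocyte score of 11.51.

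The age change was also taken in the HET and KO libraries, which are other samples but share the fit, and so its estimate of the spread, with WT. In HET 27 of 54 pairs were called, 26 of them lower, beside 15.4% of all genes called and 8.32% called lower. In KO 28 were called, 25 of them lower, beside 18.9% and 10.1%. Ncan was called lower in 6 of 6 regions in all 3 genotypes, Bcan in 5 regions, Tnc in 3, Tnr and Vcan in 2 and Hapln1 in 1, the striatum. Ncan changed by -0.78 in PFC, -0.95 in SSC, -0.90 in HP, -0.84 in STR, -1.06 in TH and -1.13 in SN in HET, and by -0.74, -1.08, -0.69, -0.85, -0.89 and -1.02 in KO, with no overlap between ages in any of the 12 sets. In the HET striatum, for example, it lay between 416 and 436 CPM at 4 weeks and between 225 and 243 at 12 weeks. Bcan was called in every HET and KO region except SN. There its changes were -0.53 (edgeR adjusted p = 0.108) in HET and -0.60 (0.0684) in KO, and the ages did not overlap. Every 12-week library lay below every 4-week library in 20 of 54 HET pairs and 24 of 54 KO pairs. Hapln4 in HET SSC lay fully above. The share over all genes is given here for WT alone, 6.61% fully below. No such share stands beside the HET and KO counts, which are a description only. The 12-week libraries of each genotype thus lay below the 4-week ones for Ncan in every region.

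Some genes were called in the mutants and not in WT. Vcan in PFC changed by -0.41 in HET and -0.45 in KO, and in STR by -0.44 and -0.39, against -0.16 and -0.19 in WT. Tnr was called in HET in 5 regions, all but SSC, with -0.35 in PFC, -0.54 in HP and -0.71 in SN. Hapln4 was called higher in SSC in HET (0.40 ± 0.09, SE, edgeR adjusted p = 0.00148) and in KO in SSC (0.27, 0.0357) and PFC (0.27, 0.0488), and Hapln2 was higher in KO SSC (0.60, 0.0256) and lower in KO SN (-0.59, 0.023). Hapln4 in KO STR fell by 1.47, which became 0.06 (0.846) without the striatal libraries that stand apart. Without those libraries Tnc in KO STR went from -1.69 to -0.79 (0.178), Vcan from -0.39 to -0.23 (0.299) and Tnr from -0.46 to -0.31 (0.0841), and none passed. With only KO 12 and KO 932 left in the 4-week KO group, these values rest on few libraries. Several of these calls were lost when 1 library was left out: Hapln4 in KO PFC (16 libraries) and KO SSC (7), Hapln2 in KO SN (6) and KO SSC (5), Tnc in KO SN (8) and HET PFC (6), Bcan in KO TH (7) and HET PFC (4), Vcan in KO STR (5), HET PFC (4), KO PFC (3) and HET STR (2), and Tnr in HET SN (1). The difference between KO and WT in the age change was tested directly, and 0 of 54 pairs passed in edgeR and 0 in DESeq2, with 4 at an unadjusted p under 0.05 and 0.0% of all genes called. A call in 1 genotype and not in another is therefore not shown to be a difference between them.

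Against WT at the same age, no matrix gene passed in either mutant. In KO 0 of 108 gene, region and age sets were called by edgeR, beside 0.644% of all genes, with 17 at an unadjusted p under 0.05 and 3 called by DESeq2. In HET 0 of 108 were called, beside 0.00521%, with 6 at an unadjusted p under 0.05 and 2 called by DESeq2. The ranges of KO and WT libraries were fully apart in 2 of these 108 sets, beside 1.52% of all genes. Ncan had tight intervals: its KO difference, with bounds of 2 SE, was -0.05 (-0.15 to 0.04) in PFC, -0.07 (-0.17 to 0.02) in SSC and 0.01 (-0.09 to 0.12) in STR at 12 weeks. Bcan differed by -0.08 (-0.21 to 0.05) in HP and -0.09 (-0.25 to 0.08) in STR at that age. For Tnc the bounds were far wider, -0.06 (-0.72 to 0.61) in STR at 12 weeks. The counts do not show that these levels are equal.

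**Figure D4:**
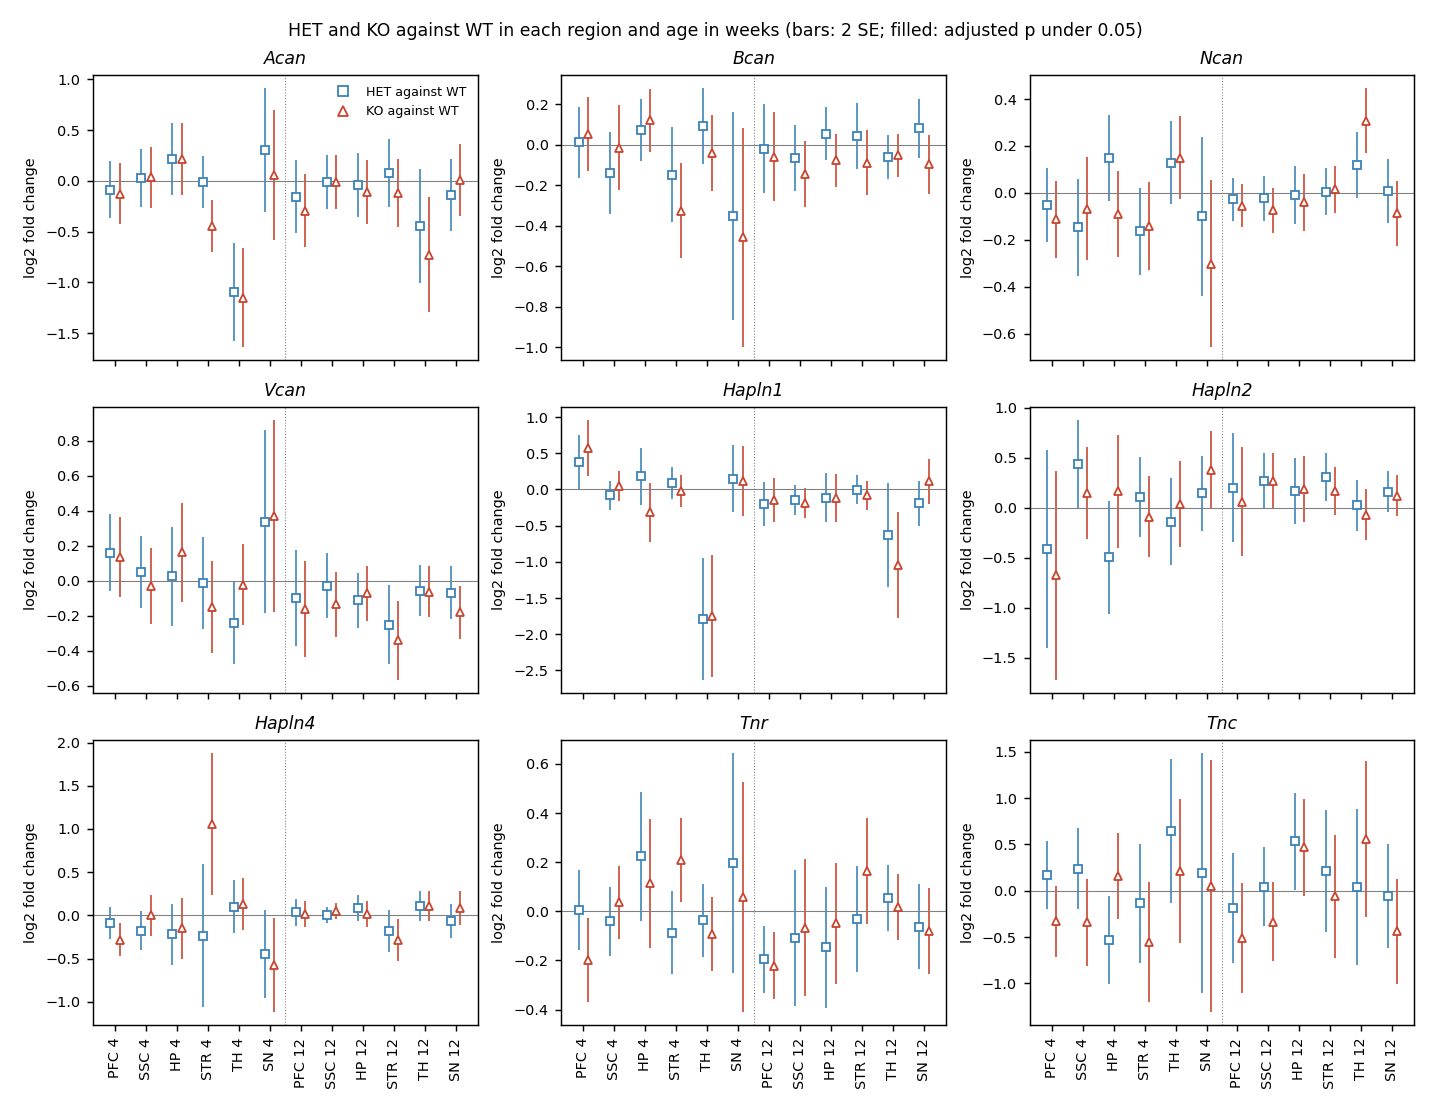
Log2 fold change of HET (squares) and KO (triangles) against WT for each gene in every region at 4 and at 12 weeks, with bars of 2 SE; a filled symbol would mark an adjusted p under 0.05, and there is none. The widest departures are Acan and Hapln1 in TH at 4 weeks, both below 0, and Hapln4 in KO STR at 4 weeks, above 0.

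The KO sets nearest the threshold were Acan in the 4-week striatum and in the 4-week thalamus, where Hapln1 had the largest KO difference of any member. In STR the WT libraries held 2.90, 2.91, 3.12, 3.35 and 3.94 CPM of Acan and the KO libraries 1.97, 2.36, 2.43, 2.44 and 2.70, with no overlap and a log2 difference of -0.45 ± 0.13 (SE; edgeR adjusted p = 0.0763). It passed without KO 12 (-0.50, 0.0415) and was -0.41 (0.282) without the libraries that stand apart; by DESeq2 it was -0.45 (0.0262). In TH Acan was lower by 1.15 ± 0.24 on the log2 scale in KO (0.106) and by 1.10 ± 0.24 in HET (0.187), and Hapln1 by 1.74 ± 0.42 (0.153) and 1.79 ± 0.42 (0.194). DESeq2 called all 4, with adjusted p of 0.00134, 0.00354, 0.00351 and 0.00308. KO libraries held 2.13 to 3.19 CPM of Acan and HET libraries 2.02 to 3.84, while WT 142 held 2.71 and the remaining 5 WT libraries 4.93 to 8.61. WT 142 lay inside the range of the mutants.

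The same WT thalamic libraries stood out in other markers. Without WT 142 all 4 thalamic differences passed in edgeR: Acan -1.30 in KO (adjusted p = 0.00483) and -1.24 in HET (0.00917), and Hapln1 -1.94 (0.0163) and -1.98 (0.0184). Without WT 913, WT 914 and WT 23, the thalamic libraries that stand apart, the 4 values were -0.69, -0.64, -0.92 and -0.96 and none passed. The fast-spiking interneuron score was 5.504, 6.29, 6.05, 5.73 and 5.66 in WT 913, 914, 23, 42 and 92 and 4.28 in WT 142, against 4.24 to 5.12 in HET and 4.27 to 4.64 in KO. Acan and Hapln1 were thus high in the 5 WT libraries where that score was high and low in the sixth; the part of these cells or of the dissection in the difference was not tested. At 12 weeks the KO differences in TH were -0.73 for Acan (adjusted p = 0.59) and -1.05 for Hapln1 (0.517).

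Further KO values that did not pass with all libraries are given as a description. Ncan in the 12-week thalamus held 187, 188, 196, 199 and 216 CPM in KO against 150 to 168 in WT, with no overlap. The log2 difference was 0.31 ± 0.07 (SE), with an edgeR adjusted p of 0.407. Ranges without overlap were found in 2 of 108 KO sets, beside 1.52% of all genes. Vcan in the 12-week striatum held 17.7, 18.5, 18.6, 21.4 and 25.3 CPM in KO against 21.8 to 30.1 in WT (-0.34 ± 0.11, 0.112). It passed without KO 2 (-0.44, 0.025) and with replicate number as a block (-0.34, 0.0304). Hapln4 in the 4-week striatum held 10.6, 12.5, 30.7, 55.3 and 56.7 CPM in KO and 11.0, 12.8, 13.04, 13.2 and 30.1 in WT, a log2 difference of 1.06 ± 0.41 (0.18) that passed without KO 12 (1.28, 0.0474). The 4 high libraries, KO 163, KO 51, KO 161 and WT 92, had cortical marker scores of 5.82, 6.29, 6.71 and 5.84, while the other WT and KO libraries had 1.73 to 2.58 and HET libraries at most 3.87. Without those 4 the difference was -0.13 (0.693). Tnc in the same set was -0.55 (0.403) with all libraries and -1.43 (0.0463) without those 4. Both values without them rest on KO 12 and KO 932 alone as the KO group.

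Genes that build, modify and cut the matrix were taken as 4 lists (the plot of called shares by list gives each region). In WT at 12 against 4 weeks, with the backgrounds by region given above, the hyaluronan turnover list had 2, 3, 2, 2, 4 and 2 of 10 genes called lower in PFC, SSC, HP, STR, TH and SN and 1 higher in SSC and in SN. Chondroitin sulfate synthesis and sulfation had 2, 4, 4, 2, 5 and 5 of 22 lower, with 1 higher in SSC and 2 in TH. Matrix proteases and inhibitors had 4, 5, 5, 5, 7 and 4 of 16 or 17 lower, with 1 higher in PFC, 1 in SSC and 2 in TH. Net-associated, receptor and other matrix proteins had 7, 12, 9, 11, 6 and 6 of 24 or 25 lower and 2, 1, 1, 0, 5 and 0 higher. The chondroitin sulfate list lay near the background of its regions, and so did the hyaluronan list in PFC, HP and STR. Those backgrounds count calls in either direction, and 11.4% of all genes were called lower over the regions. The 4 lists' medians were all below 0, from -0.45 for hyaluronan turnover in TH to -0.06 for chondroitin sulfate synthesis in HP.

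**Figure D5:**
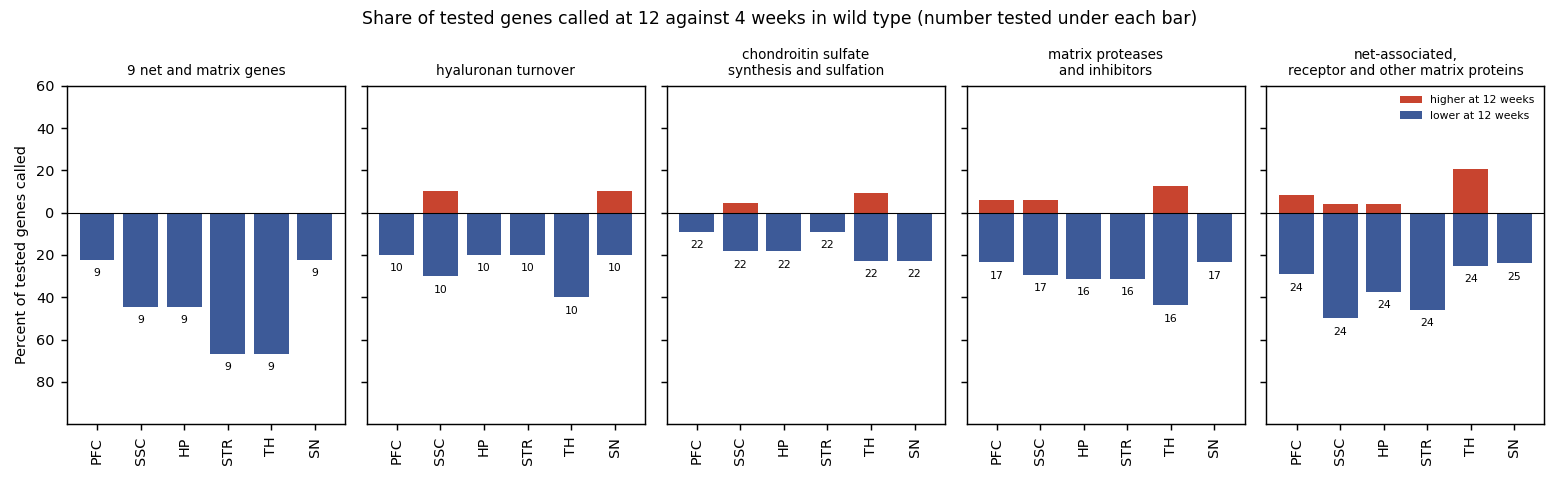
Percent of the tested genes of each list called higher (up) and lower (down) at 12 against 4 weeks in WT, by region, with the number tested under each bar. The 9 net and matrix genes have no bar above 0, and the net-associated list reaches 12 of 24 lower in SSC.

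Of the hyaluronan genes, Tmem2 fell in the most regions. This cell-surface hyaluronidase fell in SSC (-0.38), HP (-0.73), STR (-0.68), TH (-0.76) and SN (-1.01 ± 0.15, SE, edgeR adjusted p = 2.98e-05), and stood at -0.05 in PFC. Cemip, which also takes part in hyaluronan breakdown, fell in PFC (-0.37), SSC (-0.28) and TH (-1.17). Of the synthases, Has3 fell in PFC (-0.94), STR (-0.71) and TH (-0.93) and Has2 in TH (-1.50) and SN (-1.49). Calls of Cemip in SSC and of Has3 in PFC and TH were each lost without any 1 of 6 libraries, and Has3 in TH was -0.39 (0.516) without the libraries that stand apart. Chst3, which adds the 6-O-sulfate of young chondroitin chains, fell in HP (-1.03), STR (-0.78), TH (-0.99) and SN (-1.04 ± 0.16, 2.68e-05), and its HP libraries went from 7.502 to 12.6 down to 4.69 to 5.07 CPM. Ust, a 2-O-sulfotransferase, fell in TH (-1.24), SN (-0.81) and SSC (-0.19, lost without any 1 of 5 libraries). The polymerising factors Chpf and Chpf2 fell by 0.22 to 0.41 in 4 and by 0.30 to 0.38 in 3 regions, and every Chpf call and the SSC and SN calls of Chpf2 were lost without 1 library or more (2 to 8 and 1 to 5). Without the libraries that stand apart Chpf in TH was -0.11 (0.383) and Chpf2 in SN -0.20 (0.165).

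Adamts4, an aggrecanase that cuts aggrecan, brevican, neurocan and versican, fell in 6 of 6 regions by 0.87 in SSC to 1.43 in HP on the log2 scale. In STR it went from 79.8 to 114 CPM at 4 weeks to 31.0 to 42.6 at 12 weeks (-1.34 ± 0.15, SE, edgeR adjusted p = 5.58e-07). The PFC call was lost without any 1 of 4 libraries. Mmp15, a membrane-bound metalloprotease, fell in 5 regions, Mmp17 in 4 and Adamts15, a further lectican protease, in 4, of which 3 were lost without 1 library or more (1 in SN, 7 in STR and 4 in TH). Mmp17 in TH went from -1.70 to -0.82 (0.0933) without the 4-week library WT 913 and to -0.26 (0.642) without all 3 thalamic libraries that stand apart. Ptprs, a receptor of chondroitin sulfate proteoglycans, fell in 6 of 6 regions by 0.42 to 0.69 with no call lost when 1 library was left out, and in PFC it went from 692 to 1035 down to 542 to 578 CPM. Its relative Ptprf fell in 5 and stood at -0.07 in SN, and its TH call was lost without any 1 of 5 libraries and without the 3 that stand apart (-0.36, 0.17). Cspg4, the NG2 proteoglycan, fell in 6 of 6 regions by 0.47 to 0.71 and is also on the precursor marker list; its calls were lost without any 1 of 3 libraries in PFC and 2 in SN. Lgals1, a galectin, went the other way and rose in PFC (0.39), SSC (0.65), HP (0.91) and TH (1.47 ± 0.13, 5.16e-09), from 2.76 to 3.71 up to 7.93 to 11.8 CPM in TH. Its PFC call was lost without any 1 of 8 libraries.

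In KO against WT, list genes were called in the striatum and in no other region, and none was called in HET. The striatal background was 3.35% at 4 weeks and 4.42% at 12 weeks. Has3, a hyaluronan synthase, was higher in KO at both ages, by 0.82 ± 0.16 (SE; edgeR adjusted p = 0.0114) at 4 weeks, with 9.41 to 18.7 CPM against 7.05 to 10.2 in WT, and by 1.74 ± 0.15 (4.26e-06) at 12 weeks, with 12.9 to 23.9 against 4.05 to 5.82 in WT and 4.95 to 6.73 in HET. The 12-week KO libraries lay above all others. Has3 overlaps Chtf8 on the other strand. Adamts15 was higher at 4 weeks (0.74 ± 0.13, 0.00376, with 4.41 to 5.68 against 2.63 to 3.14 CPM) and at 12 weeks (0.86 ± 0.19, 0.0143, with 3.40 to 4.65 against 1.67 to 2.56 CPM), and its 4-week value was 0.63 (0.0823) without the libraries that stand apart.

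Ptprf and Nptx1 were lower in the KO striatum. Ptprf, the LAR receptor phosphatase, stood at 85.0 to 108 CPM in KO against 134 to 159 in WT at 4 weeks (-0.67 ± 0.09, SE, edgeR adjusted p = 0.000443) and at 70.8 to 79.8 against 93.8 to 124 at 12 weeks (-0.55 ± 0.08, 0.000425). Nptx1, a neuronal pentraxin that clusters AMPA receptors, stood at 9.78 to 19.4 CPM in KO against 22.6 to 30.1 in WT and 20.7 to 28.7 in HET at 12 weeks (-0.97 ± 0.15, 0.00119). The calls of Has3, Adamts15, Ptprf and Nptx1 were kept when any 1 library was left out. Those of Adamts8 (1.14, 0.0296) and Spock1 (0.48, 0.0353), higher at 4 weeks (Adamts8 overlaps the antisense gene Gm29724), and of Chsy3 (-0.37, 0.0488, 4 weeks) and B3galt6 (-0.33, 0.0203, 12 weeks) were not, being lost without any 1 of 5, 6, 7 and 6 libraries. These 4 were Adamts8 without WT 914, 42 or 142 or KO 51 or 161 (0.79, 0.251, without the libraries that stand apart), Spock1 without WT 913, 914, 42 or 142 or KO 51 or 161, Chsy3 without WT 914, 42 or 142 or KO 12, 932, 51 or 163, and B3galt6 without KO 3, 4 or 5 or WT 1, 2 or 4. None of the 9 members was called in the same striatal comparisons.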

How the data were processed

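Regions were taken from frozen brain in a cryostat, RNA was purified with RNeasy Mini columns and libraries were made from 200 ng of total RNA with a TruSeq Stranded mRNA kit, per the labels' protocols. The deposited table holds expected counts per gene, made with Salmon against mm10 per the submitters' processing notes; the sources used here do not give versions, read filters or the use of strand. Of the values above 0, 77.9% are not whole, and they were rounded. Totals of 20.8 to 73.3 M (1e6) counts per library bound the precision of low genes.

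Samples were grouped by the labels' region, age and genotype. Within each region (age changes), each region and age (genotype) or all WT libraries (regions), edgeR 4.0.16 in R 4.3.3 was run with TMM scaling, filterByExpr, glmQLFit and glmQLFTest, and p-values were adjusted by Benjamini and Hochberg over all genes of a comparison, with calls at an adjusted p under 0.05. SEs are the absolute log2 fold change over the square root of F. Alternatives included DESeq2 1.42.0. On simulated counts of 16137 genes the age fit in SSC recovered 84.8% of the 2-fold and 75.8% of the 1.5-fold changes put in. The KO fit in 12-week STR recovered 81.6% and 62.6%. The fit of SSC against PFC in 4-week WT recovered 76.3% and 43.9%. Marker scores are means of log2(CPM + 1) over lists for oligodendrocytes, their precursors, astrocytes, fast-spiking interneurons and neurons of the regions. The 9 genes, the 4 matrix lists and the marker lists come from general knowledge and were chosen with earlier results of these data known. Named list genes are those called in the most regions (up to 4 a list, age) or with the smallest adjusted p (up to 3 a list, genotype). Figures and promoter searches used Python 3.11.15, pandas 2.3.3 and numpy 2.4.6.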

Additional observations from a re-analysis of the deposited data

Results flagged for a closer look

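In 27 of 324 sets of gene, region, age and genotype (8.33%), 1 library lay farther from its group than Dixon's test at 95% allows, where chance gives about 1 in 20. These flags were spread over 24 libraries.

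A pair of libraries held more than 1 flag. The 4-week nigral library labelled WT 92, whose Akap11 level goes against its label, held 1212 CPM of Bcan (361.1 to 531.7 in the others), 72.7 of Tnr (210.5 to 265.8) and 6.25 of Vcan (21.2 to 28.5). The 12-week striatal library WT 2 held 17.8 CPM of Hapln4 (12.9 to 14.0) and 184.1 of Tnr (138.8 to 146.8).

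Tnc was the gene most often set apart. It stood at 16.3 CPM in the 4-week nigral WT 42 (others at most 7.69), 4.82 in the 12-week nigral WT 4 (others at most 2.29), 24.6 in the 4-week nigral HET 941 (others at most 9.23), 16.5 in the 12-week hippocampal HET 5 (others at most 9.12), 8.36 in the 4-week striatal HET 931 (others at most 4.81), 43.1 in the 12-week thalamic HET 3 (others at most 19.5) and 2.55 in the 4-week SSC KO 51 (others at most 1.64).

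Among link proteins, Hapln4 was 30.1 CPM in the 4-week striatal WT 92 (others 11.0 to 13.2) and 151.2 in the 12-week hippocampal HET 1 (others 137.3 to 141.1). Hapln1 was 12.4 in the 12-week PFC WT 4 (others 17.1 to 18.1) and 24.5 in the 4-week striatal KO 932 (others 18.9 to 20.3). Hapln2 was low in SSC at 12 weeks in WT 3 (7.03, others 9.30 to 9.98) and HET 4 (7.62, others 11.2 to 12.1), and high in the 4-week PFC KO 44 (3.65, others 0.821 to 1.48).

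For lecticans, Ncan was 257 CPM in the 12-week PFC HET 5 (others 274.3 to 280.3), 436.1 in the 4-week striatal HET 11 (others 416 to 419.9) and 199.7 in the 12-week hippocampal KO 4 (others 228.5 to 234.7). Acan was 3.21 in the 12-week thalamic KO 3 (others 1.64 to 1.86). Vcan was 35.1 in the 4-week hippocampal WT 42 (others 21.2 to 25.9) and 23.7 in the 12-week striatal HET 2 (others 20.5 to 21.1). Tnr was also set apart at 4 weeks in the SSC WT 913 (207.6, others 238.5 to 248.5) and the striatal WT 142 (223.3, others 197.2 to 200.6).

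The age change of Hapln4 in WT substantia nigra minus the mean change over the 5 other regions was -0.63 (edgeR adjusted p = 0.032), and the difference was -0.40 (0.231) without the 4-week library labelled WT 92.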

How the results depend on the processing

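The WT age count of 24 stayed between 19 (WT libraries alone) and 26 (DESeq2) and between 21 and 26 over 63 fits with 1 library left out. The HET and KO age count of 55 stayed between 53 and 60 (51 to 57 over 123), and the KO effect by age at 0 throughout (0 to 0). The KO count of 0 became 1 without the libraries that stand apart, 3 with DESeq2 and 0 to 2 with 1 library left out, and the HET count of 0 became 2 with DESeq2 and 0 to 2. The region count of 178 ran from 169 to 198 (170 to 192), and the region-by-age count of 1 became 0 without the libraries apart, 3 with DESeq2 and 0 to 3 with 1 library left out. The cause of these moves was not tested.

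With replicate number as a block, the KO count was 1 (Vcan in the 12-week striatum, -0.34, adjusted p = 0.0304), the HET count 0, the region count 179 and the region-by-age count 1. Same-numbered samples deviated together above r = 0.1 in 62 of 90 pairs over genotypes and in 50 of 75 (12 weeks) and 31 of 76 (4 weeks) over WT regions. Different-numbered samples did so in 96 of 360, 47 of 300 and 90 of 377. Same-numbered samples thus deviated together more often. Their median r was 0.166 against -0.0377 in different-numbered samples over genotypes at 12 weeks. Over WT regions it was 0.135 against -0.0397 at 12 weeks and 0.03465 against -0.0066 at 4 weeks. No label ties a number to an animal or day, so the fits reported above did not take the numbers as pairs. Those fits treat same-numbered libraries as independent, which these values do not show.

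Values that turned sign were Hapln4 in 4-week KO STR, -0.13 (0.693), and its KO age change in STR, 0.057 (0.846), both without the libraries apart, and Vcan in WT SN, which was -0.083 without them, -0.0029 with library subset as covariate, -0.086 with the neighbouring score (chosen after seeing the data) and -0.11 to 0.15 with 1 library left out (-0.11 without the library labelled WT 92). Scaling by relative log expression moved log2 values by -0.044 to 0.047 and, over 179 named values whether called or not, ended 4 calls, among them Hapln4 in KO PFC (0.0724) and SSC (0.0613). The subset covariate could not be fitted at 12 weeks. Depth limits Acan and Tnc, which lay under 5 CPM in several regions.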
